A study of Mus musculus with 10 samples.

Results

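The 7 genes described are the major urinary protein genes Mup1, Mup2, Mup3, Mup7, Mup17, Mup20 and Mup21, chosen by gene name from the 54532 genes of a bulk RNA sequencing table of 10 mouse livers. All 7 passed the filter on low values and are among the 13306 genes tested. Of the livers, 5 were labelled ASK1f/f and 5 ASK1+hep, and these were the only groups. ASK1f/f mice are homozygous for a construct in the ROSA26 locus with murine ASK1 cDNA behind a lox-stop-lox cassette, on a C57BL/6J background. ASK1+hep mice carry the same construct plus Alb-Cre, which removes the stop cassette in albumin-expressing cells, so that the floxed construct is shared by both groups and Cre is found in ASK1+hep mice alone. All mice were put on HFD when 6 weeks old, stayed on it for 7 weeks, and had no food for the last 5 h before tissue collection. Every liver had reads of 4 genes of the Y chromosome and at most 3 reads of Xist, the pattern of males. The study asked which hepatic transcripts differ when ASK1 is overexpressed in hepatocytes.

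Major urinary proteins are small lipocalins, barrel-shaped carriers of hydrophobic molecules, which the mouse liver makes in large amounts and secretes into blood. They pass into urine, where they bind and slowly release volatile pheromones, and they serve as scent signals themselves. MUP20, also called darcin, is the male pheromone that makes females remember and prefer the scent of a male. Hepatic Mup transcription is known to depend on pulsatile growth hormone acting through STAT5, on androgens and on nutritional state, and it is higher in males. The genes form 1 cluster in which most members are recent copies of each other, while Mup3, Mup20 and Mup21 lie at its end and have diverged further.

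The likeness of these genes bears on each value that follows, because reads from identical stretches cannot be assigned to 1 gene. In GENCODE M21 (GRCm38) the 48 Mup genes of the table comprised 21 protein-coding genes and 27 pseudogenes. The coding genes were on chromosome 4 between positions 59956804 and 62150863. The members lay on the minus strand in the order Mup7 (60066469 to 60070475), Mup2 (60135932 to 60154289), Mup1 (60498012 to 60501960), Mup17 (61591929 to 61595871), Mup20 (62050234 to 62054158), Mup3 (62083476 to 62087342) and Mup21 (62147932 to 62150863). Each had 6 coding exons and none overlapped another annotated gene. Coding sequences of the 4 clustered members Mup1, Mup2, Mup7 and Mup17 were 98.7% to 99.4% identical to each other. Mup20 was 89.9% to 90.8% identical to these 4, and Mup3 was 82.1% to 83.0% identical to them. Mup3 and Mup21 were 94.7% identical, so they form a pair of their own. The same 60 coding bases are shown for the 7 members because they let the eye see which genes a read could separate. Sequences are from GENCODE M21 transcripts, 5′ to 3′, and capitals mark the bases that differ from Mup17.
Mup17: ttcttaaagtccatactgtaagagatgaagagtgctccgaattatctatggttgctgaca
Mup7: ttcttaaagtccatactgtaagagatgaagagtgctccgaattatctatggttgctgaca
Mup1: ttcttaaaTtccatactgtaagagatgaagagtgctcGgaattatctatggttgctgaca
Mup2: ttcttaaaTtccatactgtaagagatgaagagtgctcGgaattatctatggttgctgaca
Mup20: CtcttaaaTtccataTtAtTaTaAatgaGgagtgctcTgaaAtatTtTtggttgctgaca
Mup21: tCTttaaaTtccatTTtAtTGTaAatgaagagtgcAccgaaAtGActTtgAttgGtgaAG
Mup3: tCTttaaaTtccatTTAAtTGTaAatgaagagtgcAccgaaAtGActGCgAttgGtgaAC
Mup7 did not differ from Mup17 in this stretch, and Mup1 and Mup2 differed from it at 2 positions each. Mup20 differed at 12, Mup21 at 19 and Mup3 at 21 positions. When transcripts were divided into all words of 150 bases, 100% of the words of Mup3 and Mup21 were found in no other gene. The share was 68.9% for Mup20, 59.6% for Mup17, 47.5% for Mup1, 32.9% for Mup7 and 29.7% for Mup2. Words of 50 bases gave 86.7% for Mup3, 80.7% for Mup21 and 49.5% for Mup20, but only 21.9% for Mup17 and 13.3% for Mup7. By this measure Mup3 and Mup21 are separable from the rest of the annotation, Mup20 is partly so, and the levels of the 4 clustered members are uncertain as single-gene levels.

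**Figure D1:**
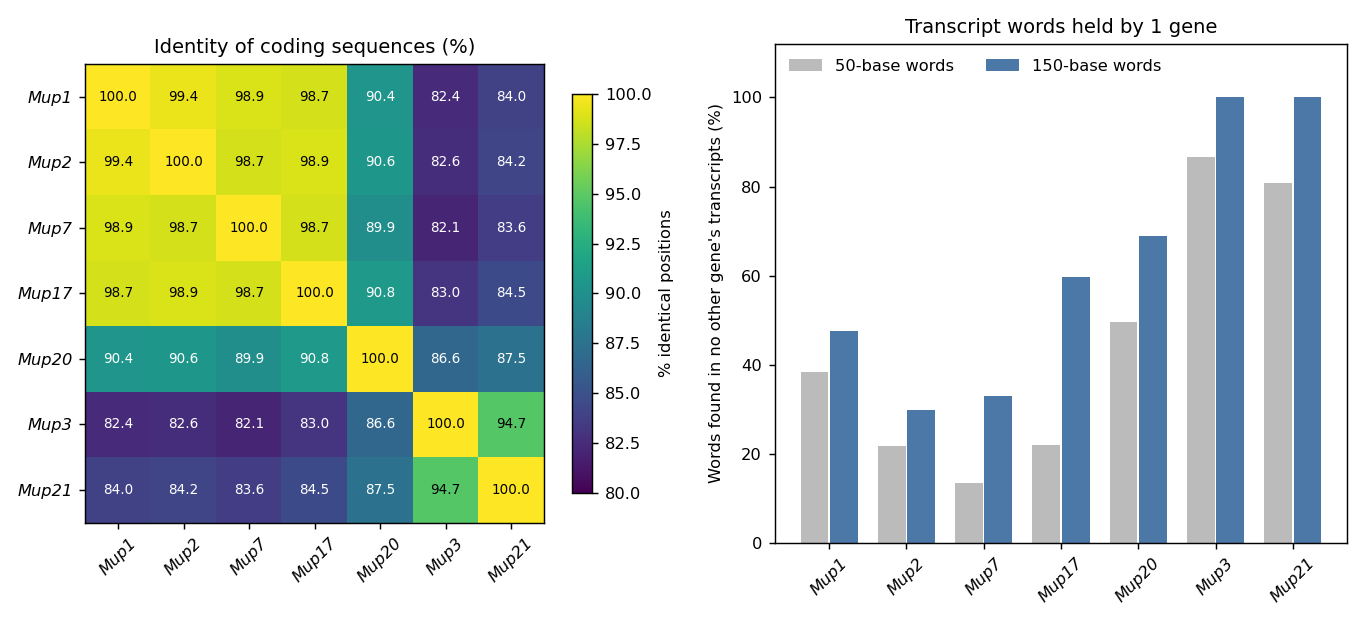
Left: percentage of identical positions between the coding sequences of the 7 genes, where the 4 clustered genes are 98.7% to 99.4% identical and Mup3 and Mup21 are 94.7% identical. Right: percentage of each gene's transcript words of 50 bases (grey) and 150 bases (blue) found in no other gene of the annotation, highest for Mup3 and Mup21 (100% at 150 bases).

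Start regions were compared as well, because a clustered member at a low level and one at a high level could be set side by side. RefSeq (GRCm38.p6) windows from 250 bases before to 50 bases after the gene start were found for 5 of the 7 members, namely Mup2, Mup3, Mup7, Mup17 and Mup21. Only the 250 bases before the start were aligned and searched, and the identities and motif counts that follow refer to them. Over aligned positions without gaps, the windows of Mup2 and Mup17 were 99.2% identical, and those of Mup3 and Mup21 were 93.4% identical. Across these pairs identity was 86.2% to 88.8%, with 98 to 120 gap positions left out. The motif TATATAA, searched on both strands and not overlapping the other motif searched, was found in 11 of the 14 windows of coding Mup genes and in 3.04% of all 32851 windows. The STAT5 motif TTCNNNGAA, also searched on both strands, was in 0 of the 14 windows and in 7.02% of all windows. The 100 bases before the annotated start are shown for Mup2 (chr4:60139857-60139956), Mup17 (chr4:61595833-61595932), Mup3 (chr4:62087318-62087417) and Mup21 (chr4:62150842-62150941), all on the minus strand and written 5′ to 3′ along the gene. Capitals mark TATATAA, which begins 27, 25, 11 and 8 bases before the annotated starts in that order. These distances depend on the annotated starts, which lie at unequal distances from the first coding base.
Mup2: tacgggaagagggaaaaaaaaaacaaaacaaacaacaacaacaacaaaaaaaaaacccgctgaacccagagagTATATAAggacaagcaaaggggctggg
Mup17: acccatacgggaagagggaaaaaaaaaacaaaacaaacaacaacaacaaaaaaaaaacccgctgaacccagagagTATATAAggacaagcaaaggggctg
Mup3: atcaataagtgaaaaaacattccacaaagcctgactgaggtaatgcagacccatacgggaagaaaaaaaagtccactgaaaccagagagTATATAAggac
Mup21: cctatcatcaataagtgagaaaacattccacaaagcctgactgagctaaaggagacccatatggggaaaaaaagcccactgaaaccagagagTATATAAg
The 250 bases before the annotated start of Mup7 held neither motif. That start (60070475) lies further from the first coding base (60070300) than in the 4 genes shown, such as Mup17 (61595832 and 61595760). Bases between the start and the coding sequence were not searched, so a TATATAA there would not be counted.

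Libraries held 13367742 to 16163378 reads on genes, recovered from the deposited FPKM (fragments per kilobase of gene, scaled to library size). The gene of ASK1, Map3k5, ranged from 4.71 to 6.88 FPKM over replicates 1 to 4 of ASK1f/f and from 7.68 to 16.4 FPKM over the 5 libraries labelled ASK1+hep. The library labelled ASK1f/f replicate 5 went against its label, with 19.8 FPKM. Genotypes follow the labels, and results that rest on that library are also given without it. Fgf21, the hepatokine of the study, was at 2.46 to 4.74 FPKM in livers labelled ASK1f/f and at 7.40 to 30.1 FPKM in those labelled ASK1+hep. For this gene the library labelled ASK1f/f replicate 5, at 3.21 FPKM, lay within the range of the other livers with its label. Animal tags began with CC in 8 libraries and with SN in replicate 1 of both genotypes. All 5 hepatocyte markers were expressed, with a summed level of 29060 to 43798 FPKM over the 10 livers, whereas 3 adipocyte markers together stayed at or below 0.0526 FPKM. In bulk tissue, fewer cells of a type and less RNA per cell cannot be told apart.

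The Mup family was among the most abundant transcript groups of these livers. Its 48 genes took 2.98% to 4.74% of all reads in livers labelled ASK1f/f and 3.63% to 7.61% in those labelled ASK1+hep. Summed family FPKM was 37860 ± 7238 (SD, n = 5) and 58823 ± 15482 (SD, n = 5), a ratio of means of 1.55, and the groups overlapped because the liver labelled ASK1+hep replicate 3, at 41601, lay below 2 livers labelled ASK1f/f. Albumin (Alb), the most abundant plasma protein, was at 21046 ± 3319 and 20634 ± 3797 FPKM (SD, n = 5 each). The 7 members made up 59.5% to 70.1% of summed family FPKM in livers labelled ASK1f/f and 49.98% to 71.6% in those labelled ASK1+hep. By mean FPKM over the 10 livers, Mup7 had rank 6 of all genes in the table, Mup17 rank 11, Mup3 rank 13 and Mup20 rank 20. Mup21 followed at rank 129, Mup1 at 575 and Mup2 at 3141.

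The order of levels was not the same in both genotypes. Mup7 was above Mup17 in 5 of 5 livers labelled ASK1f/f and in 1 of 5 labelled ASK1+hep. Mup17 was above Mup3 in 1 of 5 livers labelled ASK1f/f, that of replicate 5, and in 5 of 5 labelled ASK1+hep. Within livers labelled ASK1f/f the ranges of Mup7, Mup17 and Mup3 all overlapped. Within those labelled ASK1+hep, Mup17 (9940 to 15518 FPKM) lay wholly above Mup3 (7281 to 9347 FPKM), while the range of Mup7 overlapped both. Mup3 exceeded Mup20 in 10 of 10 livers, 1.33 to 3.47 times, and their ranges did not overlap within either genotype. Below them, Mup20 was 5.17 to 19.1 times Mup21 in every liver. Mup21 was 1.78 to 14.8 times Mup1, with overlapping ranges in ASK1+hep, and Mup1 was 2.62 to 22.1 times Mup2 without overlap.

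**Figure D2:**
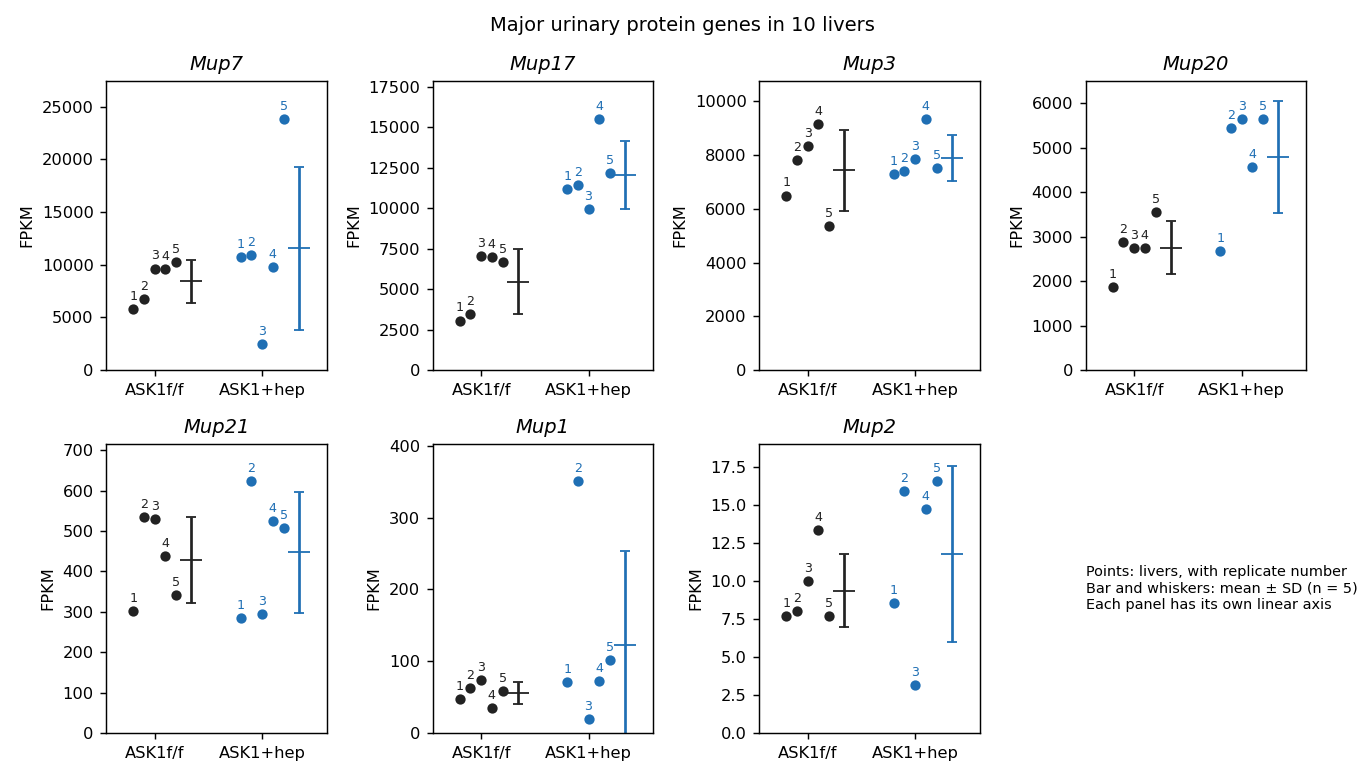
FPKM of the 7 Mup genes in each liver (points, numbered by replicate) labelled ASK1f/f (black) and ASK1+hep (blue), on linear axes from 0 that differ between panels, with mean ± SD (n = 5; the lower whisker of Mup1 in ASK1+hep is cut at 0). Mup17 is the only member whose groups do not overlap (3067 to 7068 against 9940 to 15518), and Mup20 overlaps through ASK1+hep replicate 1 at 2680.

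Among the distinct members, Mup20 had a higher mean in livers labelled ASK1+hep, without passing the adjusted test, whereas the means of Mup3 and Mup21 lay close together. Mup20, the gene of darcin, was at 1871, 2877, 2740, 2737 and 3554 FPKM in livers labelled ASK1f/f replicates 1 to 5. It was at 2680, 5430, 5642, 4569 and 5649 FPKM in livers labelled ASK1+hep replicates 1 to 5. Of the latter, 4 were above all 5 livers labelled ASK1f/f, and replicate 1 lay within their range. The means were 2756 ± 599 and 4794 ± 1262 FPKM (SD, n = 5 each), a ratio of 1.74. The log2 fold change was 0.78 (standard error 0.26, 95% interval 0.20 to 1.35), with an adjusted p = 0.812 from limma after Benjamini-Hochberg adjustment over 13306 genes. Its unadjusted p of 0.0122 had rank 195. By exact two-sided permutation of mean log2(FPKM + 1) between livers, p was 0.0397 (n = 5 per group), and Mup20 was higher in 5 of 5 same-numbered pairs. This exact p was 0.0714 without any one of the livers labelled ASK1+hep replicates 2 to 5 and 0.0556 without that labelled ASK1f/f replicate 1. Without the library labelled ASK1f/f replicate 5 the log2 fold change was 0.88 (exact permutation p = 0.0397). Within the 8 libraries whose animal tags begin with CC, Mup20 spanned 2737 to 3554 FPKM against 4569 to 5649 FPKM. Two-sided exact permutation gave p = 0.0286 (n = 4 per group, the smallest p of that size). This restriction was chosen after seeing the data. It drops ASK1+hep replicate 1, the only liver of its label within the ASK1f/f range, so the lack of overlap follows from it. Within the SN tags there was 1 liver per genotype, at 1871 and 2680 FPKM.

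Mup3 was the steadiest member. It was at 6493, 7821, 8336, 9149 and 5343 FPKM in livers labelled ASK1f/f replicates 1 to 5, while the ASK1+hep livers, in the same order, were at 7281, 7408, 7855, 9347 and 7501 FPKM. The groups overlapped over most of their range, and the lowest value was that of the library labelled ASK1f/f replicate 5. The coefficient of variation over 10 livers was 15.4%, against 28.0% for Mup21, 37.7% for Mup20 and 41.3% to 106% for the 4 clustered members. Means were 7429 ± 1514 and 7878 ± 848 FPKM (SD, n = 5 each). The log2 fold change of 0.10 (standard error 0.23, 95% interval -0.39 to 0.60) had an adjusted p = 0.918 from limma, and the exact two-sided permutation p was 0.532 (n = 5 per group). Without the library labelled ASK1f/f replicate 5 the log2 fold change was -0.0082.

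Mup21, the nearest relative of Mup3, was at 302, 535, 530, 438 and 341 FPKM in livers labelled ASK1f/f replicates 1 to 5. In livers labelled ASK1+hep replicates 1 to 5 it was at 286, 623, 295, 524 and 506 FPKM. Both genotypes held low and high livers, and the groups overlapped. The log2 fold change was 0.03 (standard error 0.26, 95% interval -0.54 to 0.59), with an adjusted p = 0.984 from limma and an exact two-sided permutation p = 0.960 (n = 5 per group). With scaling by all reads, and without any one of 5 livers, the log2 fold change of Mup21 turned negative, down to -0.11.

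Of the clustered members, Mup17 separated the genotypes without overlap, although its adjusted p did not pass. It was at 3067, 3460, 7068, 7012 and 6684 FPKM in livers labelled ASK1f/f replicates 1 to 5 while the ASK1+hep livers, in the same order, were at 11182, 11445, 9940, 15518 and 12171 FPKM. Every liver labelled ASK1+hep was above every liver labelled ASK1f/f, and replicates 1 and 2 of ASK1f/f stood below their 3 group mates. Mean expression was 5458 ± 2014 and 12051 ± 2098 FPKM (SD, n = 5 each), a ratio of 2.21. These values rest on 47470 to 212432 reads per liver. The log2 fold change was 1.22 (standard error 0.30, 95% interval 0.55 to 1.88), with an adjusted p = 0.712 from limma over 13306 genes and an unadjusted p of 0.00183 at rank 33. Two-sided exact permutation gave p = 0.00794 (n = 5 per group), which is the lowest value 5 against 5 livers can give. Values of the genotypes did not overlap, with the higher ones in ASK1+hep, for 1 of 7 members and for 0.398% of all genes tested. Without the library labelled ASK1f/f replicate 5 the log2 fold change was 1.31 (exact permutation p = 0.00794). Within the CC tags it was 1.06 (two-sided exact permutation p = 0.0286, n = 4 per group), and the 2 livers with SN tags were at 3067 and 11182 FPKM.

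Mup7, whose coding sequence is 98.7% identical to that of Mup17, varied more within than between genotypes. It was at 5831, 6714, 9643, 9628 and 10255 FPKM in livers labelled ASK1f/f replicates 1 to 5 whereas those labelled ASK1+hep were at 10712, 10906, 2463, 9789 and 23844 FPKM. The lowest and the highest of the 10 values were both in ASK1+hep, in replicates 3 and 5. Its log2 fold change was 0.17 (standard error 0.50, 95% interval -0.92 to 1.26) with an adjusted p = 0.949 from limma and an exact two-sided permutation p = 0.738 (n = 5 per group). Without the liver labelled ASK1+hep replicate 3 the log2 fold change was 0.65 (exact permutation p = 0.0397), and without that of replicate 5 it was -0.17 (exact permutation p = 0.873).

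Mup1 and Mup2 were far below the other members. Mup1 was at 47.9, 62.9, 73.8, 35.0 and 59.0 FPKM in livers labelled ASK1f/f replicates 1 to 5, against 71.0, 351, 19.9, 73.0 and 102 FPKM in ASK1+hep replicates 1 to 5. Replicate 2 of ASK1+hep stood alone at the top, while replicate 3 was below every other liver. Mup1 had a log2 fold change of 0.60 ± 0.57 (standard error; limma adjusted p = 0.832; exact permutation p = 0.468, n = 5 per group). Without the liver labelled ASK1+hep replicate 2 it was 0.08, and without replicate 3 it was 1.10 (exact permutation p = 0.0238). Mup2 was at 7.71, 8.03, 9.96, 13.3 and 7.68 FPKM in livers labelled ASK1f/f against 8.52, 15.9, 3.15, 14.7 and 16.5 FPKM in ASK1+hep livers. Again replicate 3 of ASK1+hep was the lowest of the 10, and the groups overlapped. Mup2 had a log2 fold change of 0.15 ± 0.35 (standard error; limma adjusted p = 0.924; exact permutation p = 0.778, n = 5 per group), and without replicate 3 of ASK1+hep it was 0.52. The levels of Mup2 rest on 58 to 304 reads per liver. Mup2 was 398 to 3155 times below Mup17 in FPKM. The 250 bases before their starts were 99.2% identical over 245 aligned positions without gaps. Both levels are uncertain, since 29.7% of the 150-base words of Mup2 and 59.6% of those of Mup17 were found in no other gene. How reads from identical stretches were counted is not known.

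Of the 7 members, 0 had an adjusted p at or below 0.05, as had 0 of the 13306 genes tested (0%) with limma. Fgf21, at rank 1 by p, had a log2 fold change of 2.06 and a limma adjusted p = 0.355. For Map3k5 the values were 0.60 and 0.812. A count of 0 is thus no evidence that levels were equal. With limma-voom on the recovered reads the number of genes was also 0, and with quality weights it was 1, which was no member. At an unadjusted p under 0.05 there were 2 members, Mup17 and Mup20, against 768 genes in all (5.77%). Both were higher in livers labelled ASK1+hep, as were 406 of all genes tested (3.05%). All 7 log2 fold changes were above 0, with a median of 0.17, beside a median of -0.0065 over all genes tested, of which 48.0% were above 0. There were 4 members with an unadjusted p under 0.05 without the liver labelled ASK1+hep replicate 3, against 604 of the 13306 genes tested. That liver held the lowest Mup1, Mup2 and Mup7 values, so the rise in members follows from the choice of liver.

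**Figure D3:**
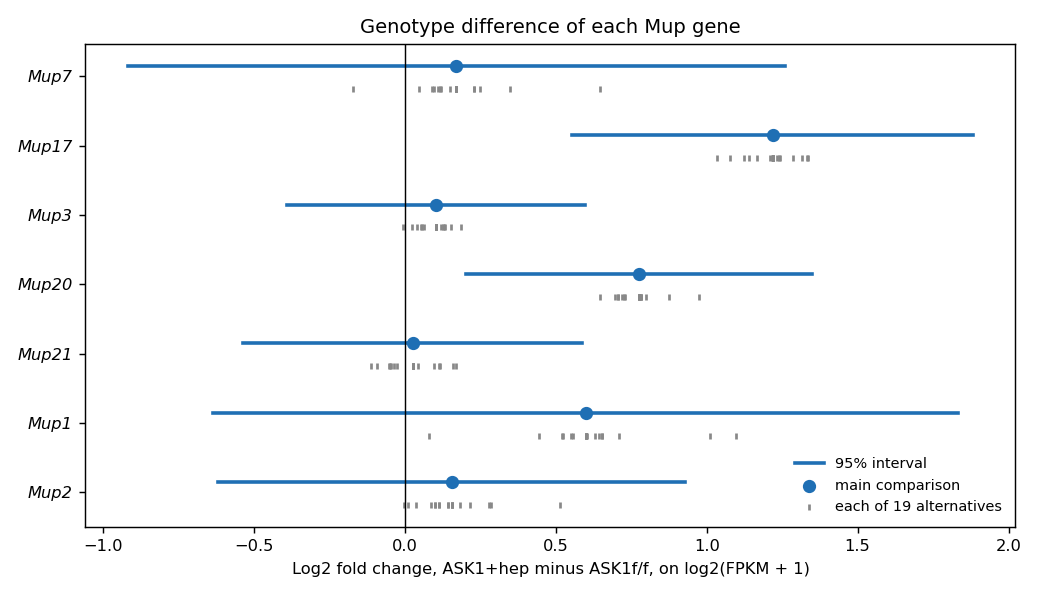
Log2 fold change of each Mup gene, ASK1+hep minus ASK1f/f on log2(FPKM + 1), with its 95% interval from limma (blue) and the value under each of 19 alternatives (grey ticks). The intervals of Mup17 (0.55 to 1.88) and Mup20 (0.20 to 1.35) lie above 0, and those of the other 5 genes include 0.

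Relations between members within a liver give a measure that does not depend on library size. They are made from the same FPKM values as above, so they are not separate evidence of a difference. The ratio of Mup17 to Mup3 was 0.756 ± 0.329 in livers labelled ASK1f/f and 1.53 ± 0.155 in those labelled ASK1+hep (SD, n = 5 each). Its ranges of 0.442 to 1.25 and 1.27 to 1.66 did not overlap, and the highest ASK1f/f value was that of replicate 5. Mup20 relative to Mup3 was 0.390 ± 0.157 and 0.612 ± 0.174 (SD, n = 5 each), with overlap, since the library labelled ASK1f/f replicate 5 was at 0.665 and that labelled ASK1+hep replicate 1 at 0.368. For Mup21 to Mup3 the means were 0.0580 and 0.0569. As a share of summed family FPKM, Mup17 held 13.99% ± 2.93 and 20.9% ± 2.53 (SD, n = 5 each), again without overlap (10.4% to 16.5% against 17.5% to 23.9%). Mup7 held 22.1% ± 1.97 in livers labelled ASK1f/f but 5.92% to 34.3% in those labelled ASK1+hep. Mup3 held 20.03% ± 4.55 and 13.98% ± 3.16 (SD, n = 5 each), with overlap.

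**Figure D4:**
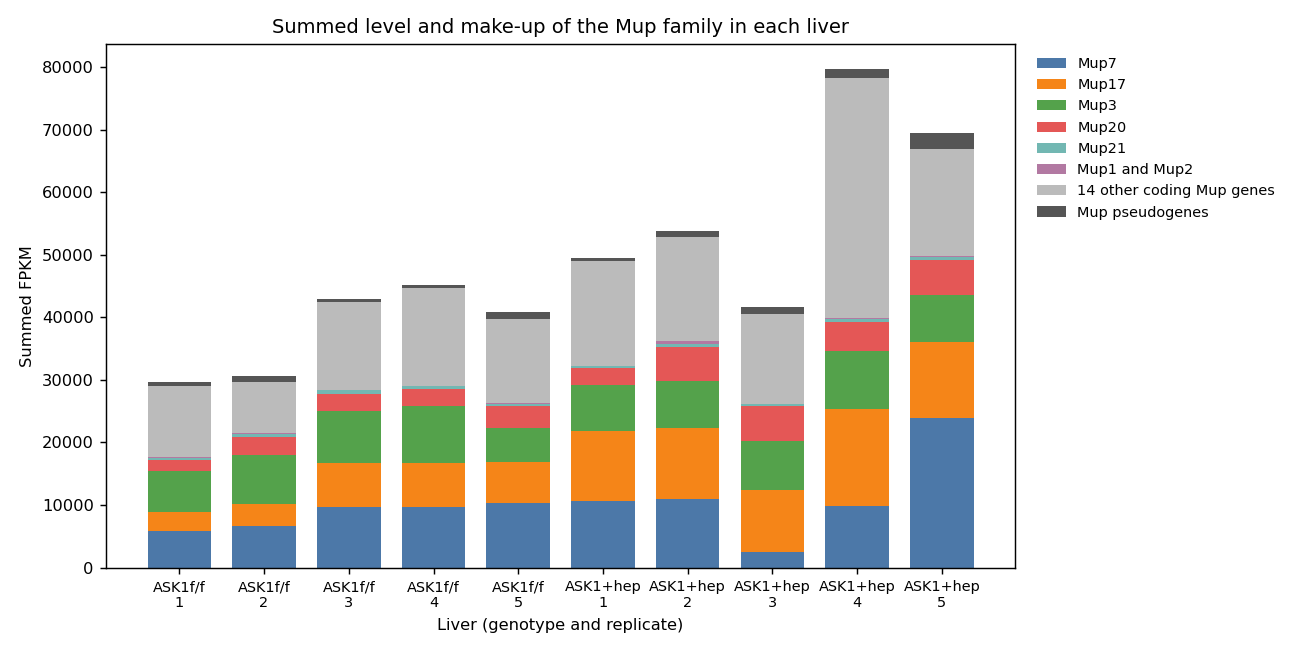
Summed FPKM of the Mup family in each liver, stacked by gene from 0 on a linear axis, with 14 other coding genes and the pseudogenes pooled. The orange segment of Mup17 is wider in all 5 livers labelled ASK1+hep, and the blue segment of Mup7 is smallest in ASK1+hep replicate 3 (2463) and largest in replicate 5 (23844).

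The rest of the cluster puts the members in context. All 21 coding genes passed the filter, and 20 had a log2 fold change above 0, beside 48.0% of all genes tested, with a median of 0.69. Besides Mup17 and Mup20, 4 had an unadjusted p under 0.05. All 6 were higher in livers labelled ASK1+hep, as were 3.05% of all genes tested. Most of the 21 share sequence with each other, so they are not separate observations. Mup18 had a mean of 104 FPKM in livers labelled ASK1f/f and 440 FPKM in those labelled ASK1+hep (log2 fold change 2.30 ± 0.54, standard error, limma adjusted p = 0.712). Mup11 had means of 590 and 1354 FPKM (1.16 on the log2 scale, adjusted p = 0.804 from limma), Mup9 of 111 and 257 FPKM (1.57, adjusted p = 0.812) and Mup6 of 1.33 and 3.48 FPKM (1.03, adjusted p = 0.812). Mup18 and Mup9 share most of their sequence with other clustered genes, and 13.7% and 35.8% of their words of 150 bases were found in no other gene. None of the 14 other coding genes separated the genotypes without overlap. Of the 14 pseudogenes tested, 8 had a log2 fold change above 0. An unadjusted p under 0.05 was found for 2, Mup-ps13 (0.31) and Mup-ps18 (-1.24), beside 5.77% of all genes tested.

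In 3 of these genes the overlap came from 1 library. Mup18 was at 40.2 to 75.3 FPKM in livers labelled ASK1f/f replicates 1 to 4, at 296 FPKM in that of replicate 5, and at 179 to 738 FPKM in those labelled ASK1+hep. For Mup9 the values were 43.5 to 82.2, 316, and 148 to 384 FPKM in the same order. For Mup6 they were 0.401 to 0.788, 4.16, and 0.928 to 5.15 FPKM. The library labelled ASK1f/f replicate 5 thus lay within the ASK1+hep range for each, and its Map3k5 value was above that range. This library was left out after these values had been seen, so the result for Mup6, Mup9 and Mup18 follows from that choice. Without it, values did not overlap for 4 of the 21 coding genes (Mup6, Mup9, Mup17 and Mup18), against 1.09% of all genes tested. For Mup6 the nearest values, in ASK1f/f replicate 4 and ASK1+hep replicate 2, were 12 reads each and differ through library size alone. Its levels rest on 6 to 76 reads per liver. Of the 21, 7 were higher at an unadjusted p under 0.05, against 3.07% of all genes. Clustered genes share sequence, so they are not separate observations. Log2 fold changes without that library were 2.78 for Mup18 and 2.06 for Mup9 (adjusted p = 0.166 from limma for both). Mup17, at 6684 FPKM in that library, stayed inside the range of the other livers labelled ASK1f/f.

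**Figure D5:**
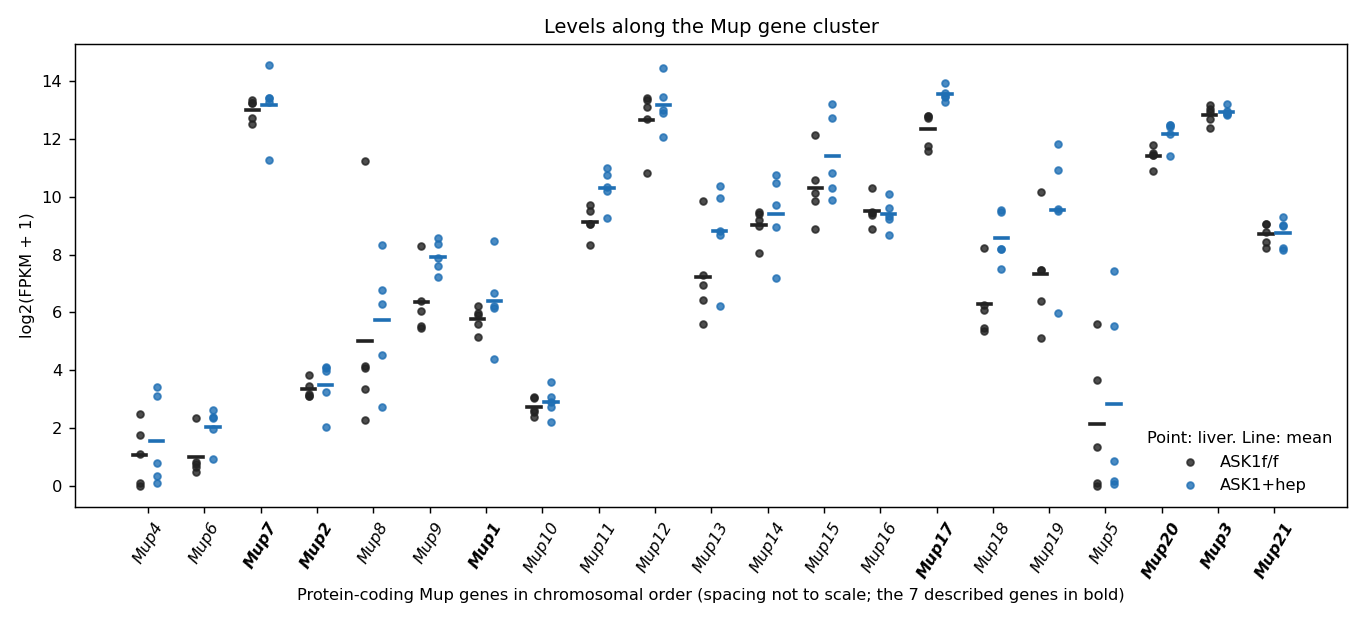
Levels of the 21 protein-coding Mup genes as log2(FPKM + 1), in chromosomal order, in livers labelled ASK1f/f (black) and ASK1+hep (blue), with points for livers and lines for means (n = 5). Mup17 is the only gene of the 21 whose groups do not overlap, and 1 black point stands high among the blue ones for Mup6, Mup9 and Mup18.

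Growth hormone signalling was followed through 12 genes, of which 11 passed the filter. Of these, 1 had a log2 fold change above 0, beside 48.0% of all genes tested, and 10 were below. The median was -0.19, beside -0.0065 over all genes. None of the 11 had an adjusted p at or below 0.05, and 1 had an unadjusted p under 0.05, beside 5.77% of all genes tested. This was Onecut1, a hepatocyte transcription factor, with means of 2.18 FPKM in livers labelled ASK1f/f and 0.939 FPKM in those labelled ASK1+hep (log2 fold change -0.68 ± 0.24, standard error, limma adjusted p = 0.812). Stat5b, the factor that growth hormone activates in liver, was at 9.97 and 8.63 FPKM (-0.19, adjusted p = 0.812 from limma). Cish, a feedback inhibitor induced by STAT5, was at 0.990 and 0.422 FPKM (-0.43, adjusted p = 0.812 from limma), and Igfals, which encodes a carrier subunit of IGF1 in plasma, at 57.9 and 46.7 FPKM (-0.30, adjusted p = 0.812).

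Other genes known to be higher in male than in female liver did not share the direction of Mup17 and Mup20 as a list. Of 13 male-biased genes, 5 had a log2 fold change above 0, beside 48.0% of all genes tested, and 8 were below. Their median was -0.05. At an unadjusted p under 0.05, which 5.77% of all genes tested met, Elovl3, a fatty acid elongase, was higher (84.4 and 128 FPKM, log2 fold change 0.69). Selenbp2 (503 and 272 FPKM, -0.90) and the complement gene C4a (38.6 and 22.8 FPKM, -0.68) were lower. Of 17 female-biased genes, 13 did not pass the filter, and Cyp3a41a, Cyp3a41b and Sult3a2 were listed at 0 in all livers. Of the 4 that passed, 3 had a log2 fold change above 0. At an unadjusted p under 0.05, 2 of these were higher, as were 3.05% of all genes tested. They were Cyp17a1, a steroid hydroxylase (16.6 and 34.0 FPKM, 0.97), and Abcd2, a peroxisomal transporter of fatty acids (1.57 and 2.58 FPKM, 0.51). The adjusted p of these 5 genes was 0.712 for Cyp17a1 and 0.812 for the others (limma).

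Genes of other secreted proteins went both ways. Of 12 plasma protein genes, 5 had a log2 fold change above 0, beside 48.0% of all genes tested, and the median was -0.02. Their summed level was 52044 to 63144 FPKM in livers labelled ASK1f/f and 56070 to 84414 FPKM in those labelled ASK1+hep, with overlap. Apoa2, an apolipoprotein of high-density lipoprotein, had means of 10788 ± 922 and 17728 ± 9827 FPKM, Trf (transferrin) of 257 ± 21.1 and 374 ± 182 FPKM, and Fgb, a fibrinogen chain, of 1152 ± 533 and 844 ± 321 FPKM (SD, n = 5 each). Of the 12, 1 had an unadjusted p under 0.05, beside 5.77% of all genes tested. This was Ttr, the carrier of thyroxine and retinol-binding protein (3725 and 5531 FPKM, 0.52, adjusted p = 0.812 from limma). Of 9 other lipocalins and binding proteins, 2 were above 0, with a median of -0.20. Orm1, an acute phase lipocalin, had the lowest p of these (976 and 563 FPKM, -0.73, adjusted p = 0.812 from limma), followed by Lcn2, an iron-siderophore binder (log2 fold change -1.98, adjusted p = 0.812). Lcn2 was uneven among livers labelled ASK1f/f, from 1.90 to 124 FPKM with a median of 4.10, against 1.05 to 3.93 FPKM with a median of 2.74 in those labelled ASK1+hep. Rbp4, the plasma carrier of retinol, was at 2649 and 3384 FPKM (0.32, adjusted p = 0.812 from limma).

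Markers of other cells moved as follows. All 4 erythroid genes had a log2 fold change above 0, beside 48.0% of all genes tested, with a median of 0.71. Hba-a2 (1.20) and Hbb-bt (0.64) were higher at an unadjusted p under 0.05, as were 3.05% of all genes tested. The limma adjusted p was 0.712 for Hba-a2 and 0.812 for Hbb-bt. The summed level of the 4 genes was 278.6 to 447 FPKM in livers labelled ASK1f/f and 278.9 to 988 FPKM in those labelled ASK1+hep. Their part in the Mup values was not tested. Of 5 Kupffer cell markers, 0 were above 0, beside 48.0% of all genes tested. The median of these 5 was -0.21, with sums of 52.5 to 84.7 and 39.4 to 78.7 FPKM. Endothelial (20.97 to 29.0 and 15.9 to 29.9 FPKM), stellate (15.1 to 23.1 and 12.8 to 24.8 FPKM), cholangiocyte (1.59 to 3.44 and 1.81 to 2.44 FPKM) and lymphocyte (0.378 to 1.39 and 0.511 to 2.14 FPKM) sums overlapped between genotypes, and no gene of these lists had an unadjusted p under 0.05.

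The transcripts most like Mup20 over the 10 livers are given as a description, since the livers share genotype and library effects and 13306 genes were searched. Pearson's r of log2(FPKM + 1) with Mup20 was 0.93 for Id4, an inhibitor of bHLH factors at 0.207 and 0.291 FPKM, and 0.91 for Cyp3a11, a drug- and steroid-metabolizing enzyme at 121 and 323 FPKM. It was 0.90 for Gm20337 and Clec2d and 0.89 for Lars. After removal of each genotype's mean, r was 0.84 for Id4 and 0.82 for Cyp3a11. For the summed clustered members the 5 nearest were Gm45792, Them4, Hsf2, Cyp3a25 and Abcg2, with r from 0.85 to 0.89. Among the members themselves, r was 0.86 for Mup2 and Mup7 and 0.74 for Mup17 and Mup20, the latter 0.34 after removal of each genotype's mean. Mup3 and Mup7 had r = -0.02. Each r is over 10 livers.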

How the data were processed

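Bulk RNA sequencing of 10 mouse livers was analysed. Poly-A RNA was sequenced by a provider, which mapped clean reads with Hisat2 and quantified them with FeatureCounts (per the study's methods); fastp is named in the submitters' processing notes. How multi-mapped reads were counted, strand, build and annotation are not given in the sources used here. FPKM values per gene were deposited by the authors. GENCODE M21 (GRCm38) held 54409 of the 54532 gene identifiers, 98.3% of them at the same position. FPKM multiplied by gene length gave whole reads within 0.001 for 100% of values, and thus the depth. A gene was tested if 5 or more livers had 10 or more reads after scaling to the median depth, with 15 or more reads over all livers. Genotypes were compared with limma 3.58.1 (R 4.3.3) on log2(FPKM + 1), without covariate, with an intensity trend in the variance and Benjamini-Hochberg adjustment over 13306 genes. Fold changes on this scale are understated for low genes. The DESeq2 test of the study was not run. As alternatives, limma-voom was fitted to the recovered reads, with and without quality weights. Single members were compared by exact two-sided permutation over 252 arrangements.

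Replicates are single mice, numbered by the labels. The study's controls were littermates, and 4 of 5 same-numbered pairs have consecutive animal tags, but no source says which mice share a litter. Deviations of same-numbered livers from their group means correlated at 0.0212 to 0.174 across genes (mean 0.107, against -0.027 for other pairs), below 0.1 for some, so the number was used as a block only in an alternative. Transcript words and coding sequences came from GENCODE M21 (for each gene the transcript with 6 coding exons where there was one; aligned with MAFFT 7.526), and start regions from RefSeq GRCm38.p6. Named genes were the 7 members, Map3k5 and Fgf21, and up to 4 genes of each list with the lowest limma p. The 5 nearest correlates of Mup20 and of the summed clustered members were also named. Of the other Mup genes that passed the filter, those with an unadjusted p under 0.05 or a flagged liver were named. The members and lists were chosen with earlier results of these data known. The comparison was tested on simulated data. Figures were drawn with matplotlib 3.10.9.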

Additional observations from a re-analysis of the deposited data

Results flagged for a closer look

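A liver is named here when its gap to the nearest liver of its genotype, divided by the range of that genotype, exceeded 0.71. For independent, normally distributed values, chance alone gives this in about 1 of 20 groups. FPKM was used without logarithm and many Mup genes share reads, so that rate need not hold here. Of 48 groups of 5 livers examined (24 quantities), 12 exceeded it. Of these, 4 were in the library labelled ASK1f/f replicate 5 among Mup genes, namely Mup6 (4.16 FPKM), Mup8 (2420 FPKM), Mup9 (316 FPKM) and Mup18 (296 FPKM), and the same library held the highest Map3k5 value (19.8 FPKM). Mup8 was at 3.89 to 16.9 FPKM in the 4 other livers labelled ASK1f/f and at 5.67 to 322 FPKM in those labelled ASK1+hep. Among the members were Mup1 in ASK1+hep replicate 2 (351 FPKM) and Mup3 in ASK1+hep replicate 4 (9347 FPKM). The others were Mup13 in ASK1f/f replicate 3 (923 FPKM), Mup15 in ASK1f/f replicate 2 (4459 FPKM), Mup19 in ASK1f/f replicate 4 (1147 FPKM), and Mup5 in ASK1f/f replicate 2 (47.4 FPKM) and in ASK1+hep replicate 5 (172 FPKM). Of the 150-base words of Mup19 and Mup15, 0.765% and 9.28% were found in no other gene, and for Mup5 the share was 100%.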

How the results depend on the processing

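Of 300 values recomputed under 20 alternatives, 266 kept their direction and their side of the threshold; where a value changed, the cause was not tested. No member had an adjusted p at or below 0.05 under any of 19 alternatives to the limma comparison, and Mup17 (log2 fold change 1.03 to 1.34) and Mup20 (0.64 to 0.97) were above 0 in all 19, with unadjusted p up to 0.00936 and 0.0375. The number of genes past the adjusted threshold was 1 with limma-voom and quality weights and 0 to 1 without single livers. The number at an unadjusted p under 0.05, 768 in the comparison reported, was 1222 with no filter and 557 to 1724 without single livers. Of members, 2 to 4 had an unadjusted p under 0.05 without single livers. Without single livers, log2 fold changes ranged from 0.08 to 1.10 for Mup1, -0.0042 to 0.52 for Mup2, -0.0082 to 0.19 for Mup3, -0.17 to 0.65 for Mup7 and -0.11 to 0.17 for Mup21. Mup21 also turned to -0.053 with scaling by all reads and to -0.026 with scaling by all reads outside the Mup family. Of the genes with an unadjusted p under 0.05, 52.9% were higher in the comparison reported and 31.4% with scaling by all reads, with a median log2 fold change over all genes of -0.052. Exact permutation p-values without single livers ranged from 0.0238 to 0.897 (Mup1), 0.0714 to 1 (Mup2), 0.254 to 0.960 (Mup3), 0.0397 to 0.873 (Mup7), 0.00794 to 0.00794 (Mup17), 0.00794 to 0.0714 (Mup20) and 0.603 to 0.921 (Mup21). With the replicate number as a replicate block (4 of 5 pairs have consecutive animal tags), the exact sign-flip permutation p was 0.0625 for Mup17 and for Mup20, the smallest p that 5 pairs allow, and limma gave adjusted p-values of 0.712 and 0.719. The block moved the number of genes at an unadjusted p under 0.05 to 880, and 6 of 10 livers correlated best with their own number. Restriction to the 8 livers with CC tags, chosen after seeing the data, turned the difference of Mup7 (log2 -0.0069, exact permutation p = 1). Of the members, Mup2 had the fewest reads (58 at least).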
